A study of Mus musculus with 39 samples.

Results

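The interferon stimulated genes Ifit1, Ifit2, Ifit3, Isg15, Irf7, Usp18, Rsad2, Mx1 and Oasl2 were followed in epididymal adipose tissue of mice on a low fat or a high fat diet. These 9 genes were taken by name out of 29411 gene names on the array, and 13 of the 40628 probes carried one of the names. Each gene is represented by its brightest probe, the probe with the highest mean signal over all arrays, and the other probes serve as a check. A level is the log2 of the array's processed signal minus the array's 75th percentile, so a level of 0 equals the 75th percentile of that array. Levels are not compared between genes, because probes differ in brightness.

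Interferons are secreted proteins that warn neighbouring cells of infection or of misplaced nucleic acid. Type I interferons bind a receptor at the cell surface, and the signal is carried to interferon response elements at the promoters of many genes. In adipose tissue, adipocytes and resident macrophages can both express these genes. Among the members, the IFIT proteins bind viral RNA, RSAD2 (viperin) makes a nucleotide that stops viral RNA synthesis, MX1 is an antiviral GTPase, and OASL2 belongs to the oligoadenylate synthetase family. ISG15 is a ubiquitin-like protein that is joined to other proteins, and USP18 removes it and also dampens signalling at the type I interferon receptor. IRF7 is the transcription factor that amplifies interferon alpha production. In C57BL/6J mice Mx1 is a disrupted gene and is annotated as a transcribed pseudogene, so its probe reports RNA and not a working protein.

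All mice were of the C57BL/6J strain and entered the study at weaning, at 3 to 4 weeks of age. The low fat control diet (LFC) held 10% of calories as fat, and 11 arrays covered days 1, 6, 10 and 14 and weeks 0, 3, 6, 9, 12, 15 and 18. The high fat diet (HFC) held 60% of calories as fat with increased sucrose, and 10 arrays covered the same times without day 1. The ethno-botanical formulation KAL-1 was given on top of the high fat diet at 5, 20 or 75 µg (HF5, HF20 and HF75), with 6 arrays per dose at weeks 3 to 18. Weeks were counted after day 14. By the methods of the paper on this study's liver arrays, day 14 and week 0 are therefore the same time. They are kept here as separate time points. The series' design text speaks of 3 biological replicates, while the files hold a single array per diet at each time point, so what 1 array stands for is not settled. Here time points take the place of replicates, and whether an array held 1 animal or a pool is not given in the labels. Tissue of this kind is a mixture, and fewer cells of a type and less RNA per cell cannot be told apart.

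The promoters are shown because the members are defined by their response to interferon, whose best known element is written here as GAAANNGAAA and was searched on both strands. Promoter windows of 300 bases, 250 before and 50 after the RefSeq transcription start on GRCm38.p6, were found for 7 of the 9 genes, with none at hand for Usp18 and Mx1. The element occurred in 4 of these 7 genes (Isg15, Rsad2, Ifit3 and Ifit1), and in 3.44% of all 32851 windows. No match in the windows of Ifit2, Irf7 and Oasl2 says only that these letters are not there. Below, capitals mark the matches, and each sequence runs 5′ to 3′ on the gene's strand. Isg15 lies on the minus strand at chr4:156200855-156200916, Rsad2 on the minus strand at chr12:26456543-26456592, Ifit3 on the plus strand at chr19:34583353-34583436 and Ifit1 on the plus strand at chr19:34640765-34640833.
Isg15: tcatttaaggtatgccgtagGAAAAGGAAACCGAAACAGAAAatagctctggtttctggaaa
Rsad2: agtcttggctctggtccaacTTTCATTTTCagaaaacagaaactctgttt
Ifit3: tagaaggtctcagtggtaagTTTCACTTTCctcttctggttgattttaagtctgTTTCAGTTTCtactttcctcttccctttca
Ifit1: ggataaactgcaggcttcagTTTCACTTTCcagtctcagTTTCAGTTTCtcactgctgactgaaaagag
In Isg15, 3 overlapping matches ran from 78 to 57 bases before the start site. Rsad2 held a single match, from 120 to 111 bases before it, in the opposite orientation. Ifit3 and Ifit1 held a pair each, at 156 to 147 and 122 to 113 bases in Ifit3 and at 104 to 95 and 85 to 76 bases in Ifit1. Ifit1, Ifit2 and Ifit3 are neighbours on chromosome 19.

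The arrays were not of equal quality. On the LFC week 3 array 97.1% of spots were well above background and 16431 spots were marked as outliers, on the HFC week 12 array 94.5% and 10531, and on the other 37 arrays 53.7% to 79.6% and 21 to 387. LFC week 3 gave no value for Irf7 and Mx1. Results that rest on these arrays are given with and without them. Each time point had its own scan date except week 3, where LFC was scanned alone, and week 6, scanned on 2 dates, so scan date and week cannot be told apart in most comparisons of weeks. Adipocyte markers were well above background on all arrays for 10 of 10 genes, and macrophage markers for 10 of 10. Epididymis markers, of the organ beside this fat pad, were well above background on at least 20 arrays for 8 of 11 genes.

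A feature of the sample titles ran with the levels and is given here before the results. Of the 30 arrays of weeks 0 to 18 other than LFC week 3 and HFC week 12, 24 have a title that ends in the letter A and 6 do not. The 6 are HFC week 3, HF20 week 6, LFC week 12, HF20 week 12, HF75 week 12 and HF20 week 18. The labels do not define the ending. The titles of all 7 day arrays end in E, so not in A either. Their levels were mixed, with Rsad2 between 0.44 (LFC day 1) and 2.36 (LFC day 14). Their immediate early means lay between -4.27 (HFC day 6) and 1.18 (LFC day 14). Rsad2 was between -1.88 and 0.97 on the 6 arrays and between 1.56 and 5.24 on the 24. Isg15 was between -1.34 and 1.75 on the 6 and between 1.77 and 4.06 on the 24. In these 2 of 9 members every one of the 6 arrays lay below all of the 24, as in 4.39% of the 32083 probes tested over weeks 3 to 18. No member lay above all of the 24 (3.66% of probes did), and the other 7 overlapped. Immediate early genes, which any cell switches on within minutes of a stimulus, did so in 11 of 12 cases, and their mean deviation was -4.37 to -1.46 on the 6 arrays and 0.88 to 1.85 on the 24. The part of whatever the ending stands for in the results was not tested, and comparisons are given with and without these 6 arrays.

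All 9 brightest probes were well above background on 39 of 39 arrays, and none was saturated. Rsad2 varied 139-fold between its lowest array, HF20 week 18 (-1.88), and its highest, LFC week 15 (5.24). Over the 11 LFC arrays its lowest, median and highest levels were -0.27, 2.04 and 5.24. Over the 10 HFC arrays they were 0.53, 1.96 and 3.52. The HFC values lay within the LFC range, which was wider on both sides.

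With KAL-1, Rsad2 had a lowest, median and highest level of 2.25, 2.73 and 3.85 in HF5. In HF20 these levels were -1.88, 0.69 and 3.78. In HF75 they were -0.57, 3.12 and 4.68. Over the same 6 weeks the medians were 2.65 in HFC and 2.37 in LFC, so the order was HF75, HF5, HFC, LFC and HF20, and the ranges of all neighbours in it overlapped. The other Rsad2 probes followed the brightest (r = 0.92 and 0.91 over 37 arrays, without LFC week 3 and HFC week 12).

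**Figure D1:**
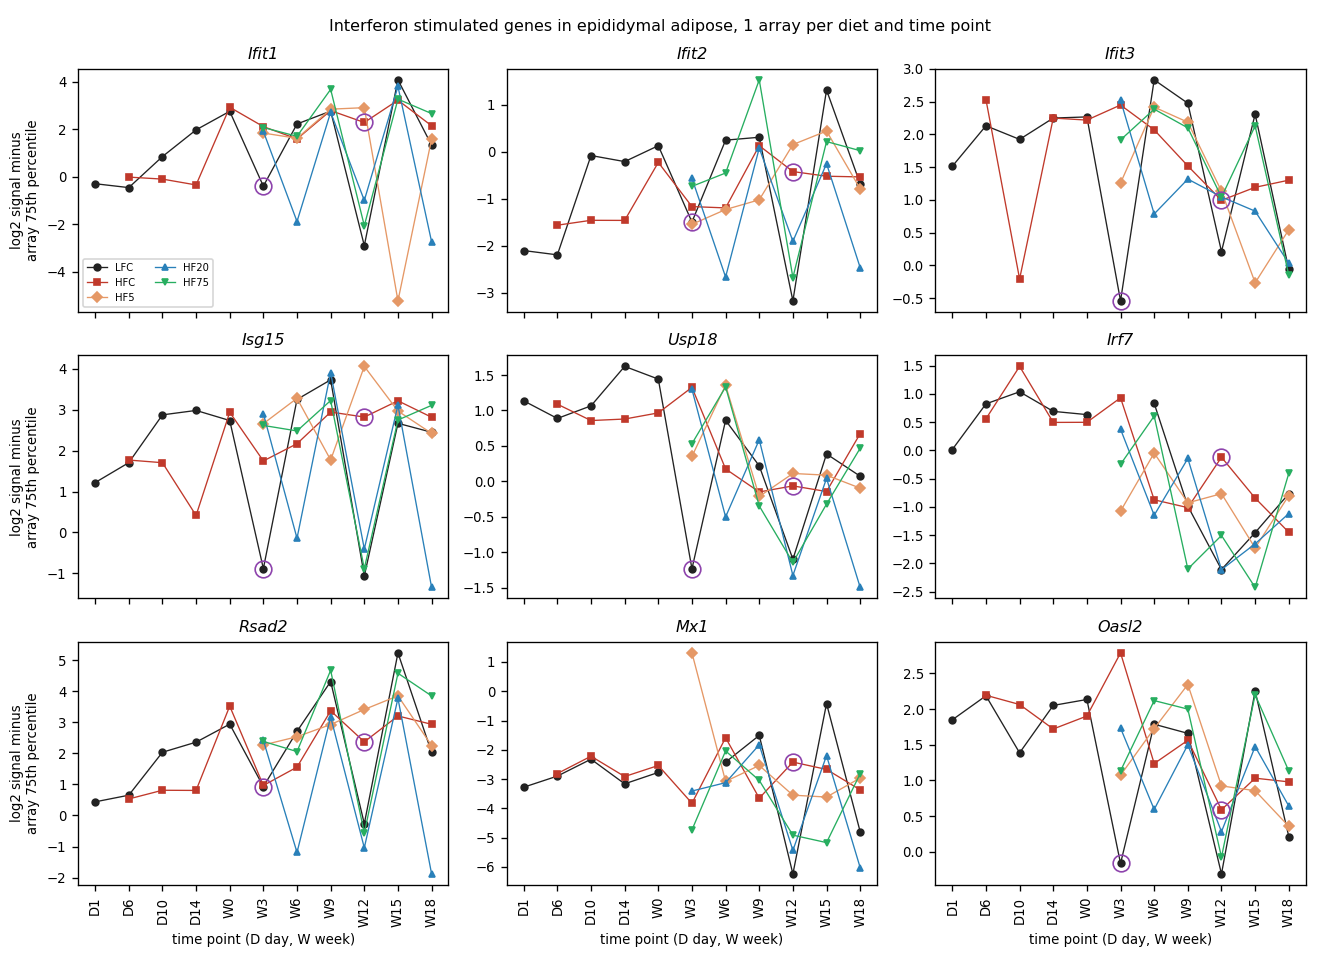
Level of each of the 9 genes (log2 processed signal minus the array's 75th percentile) at the 11 time points, 1 panel per gene and 1 line per diet, with 1 array at each point. LFC week 3 and HFC week 12 are circled. In most panels the LFC, HF20 and HF75 lines dip at week 12, where Rsad2 was -0.27, -1.04 and -0.57. Rsad2 fell less in HFC, to 2.37 from 3.37 at week 9, and stood at 3.42 in HF5.

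Ifit1 had the widest range of the 9, 632-fold, from -5.23 at HF5 week 15 to 4.07 at LFC week 15. Without the HF5 week 15 array its lowest value was -2.91, a 126-fold range, which is narrower than those of Mx1 (187-fold) and Rsad2. Its lowest, median and highest levels were -2.91, 1.32 and 4.07 in LFC and -0.35, 2.12 and 3.21 in HFC. In the dosed groups its medians were 1.72 (HF5), 0.45 (HF20) and 2.36 (HF75), and all 5 groups overlapped.

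Ifit2 ran from -3.17 to 1.52 with a median of -0.57 over all 39 arrays, a 25.9-fold range. Its second probe followed at r = 0.76. Ifit3 ran from -0.54 to 2.83 with a median of 1.52, a 10.4-fold range. Both had a narrower range than Ifit1, their neighbour on the chromosome.

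Oasl2 had the narrowest range of the 9, 8.56-fold, from -0.31 at LFC week 12 to 2.79 at HFC week 3. Mx1 ran from -6.24 to 1.31 over 38 arrays. Its highest value, at HF5 week 3, was not seen in the second Mx1 probe, which stood at -7.48 there, was well above background on 17 of 39 arrays and followed the brightest at r = 0.51. The Mx1 values are therefore less certain than the others.

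Isg15 ran from -1.34 at HF20 week 18 to 4.06 at HF5 week 12. Its lowest, median and highest levels were -1.06, 2.67 and 3.73 in LFC and 0.41, 2.49 and 3.22 in HFC. In HF20 they were -1.34, 1.38 and 3.91. The 5 diets overlapped, with HF20 the widest.

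Usp18, which removes ISG15 from its targets, ran from -1.50 at HF20 week 18 to 1.62 at LFC day 14, an 8.69-fold range. Irf7 ran from -2.42 at HF75 week 15 to 1.49 at HFC day 10, a 15.1-fold range over 38 arrays. From week 9 on no array had Irf7 above -0.12.

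The spread left after diet and week over weeks 3 to 18 was a residual SD of 2.36 for Ifit1, larger than that of 99.3% of probes. It was 1.59 for Mx1, 1.53 for Isg15 and 1.35 for Rsad2. For the other 5 genes it lay between 0.66 (Oasl2) and 0.98 (Ifit2), against a median of 0.74 over all probes.

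To describe the members together, each level was set against the gene's mean over 37 arrays and these deviations were averaged per array. The mean deviation was lowest on LFC week 12 (-2.39), HF20 week 18 (-2.32), HF75 week 12 (-1.92), HF20 week 12 (-1.82), LFC week 3 (-1.70, from 7 genes) and HF20 week 6 (-1.53). On each of these 6 arrays every member with a value was below its own mean. The next array was HF5 week 15 at -0.79, on which 6 of 9 members were below their means and Ifit1 was at -5.23. LFC week 15 was highest at 1.32. Of these 6 low arrays, LFC week 3 is the array of poor quality and the other 5 have a title that does not end in A, while HFC week 3, the sixth such title, stood at 0.31.

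The lowest and the highest array were both LFC. On LFC week 12 the levels were -2.91 for Ifit1, -3.17 for Ifit2, -1.06 for Isg15, -0.27 for Rsad2 and -6.24 for Mx1. On LFC week 15 they were 4.07, 1.31, 2.67, 5.24 and -0.42. Irf7 was low on both, at -2.11 and -1.46, and thus did not share the contrast. At week 12 the 5 diets split, with LFC, HF20 and HF75 low and HFC (0.17) and HF5 (0.43) near the gene means. At that week the means of the immediate early genes were -4.37 (LFC), -3.45 (HF20) and -3.55 (HF75) against 0.55 (HFC) and 1.33 (HF5), and their part in the result was not tested.

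**Figure D2:**
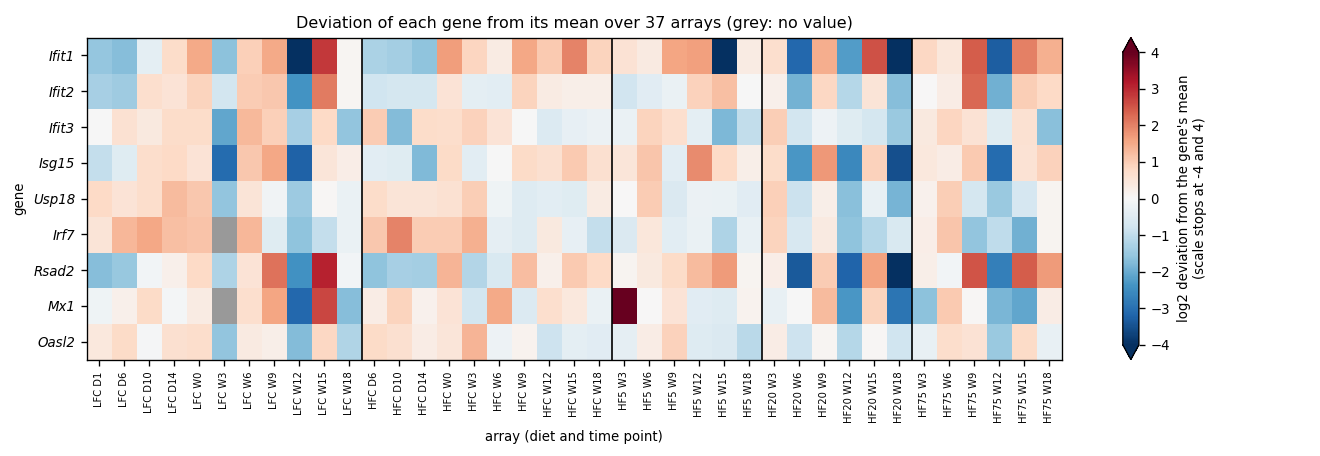
Deviation of each gene's level from its own mean over 37 arrays (colour, log2 scale, colours stop at 4 in either direction), for 9 genes in rows and 39 arrays in columns. Grey cells have no value. The columns of LFC week 12, HF20 weeks 6, 12 and 18, HF75 week 12 and LFC week 3 are below 0 for every gene with a value.

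The high fat diet was compared with the low fat diet over the 10 time points that both share, with time point as a block. No member changed. The 9 differences (HFC minus LFC) ran from -0.29 for Rsad2 (SE 0.40) to 0.44 for Ifit1 (SE 0.58), with a median of 0.14 against 0.03 over all probes, and 7 of 9 were above 0. By limma with Benjamini-Hochberg adjustment 0 of 9 passed (smallest adjusted p = 0.998), with 0 members at an unadjusted p under 0.05, and a plain test of the 10 paired differences without limma's moderation gave 0 at that level, with 945 of all probes at it and none after adjustment. The methods' own test, of replicate values at 1 time point, could not be made here. Over all 29698 probes tested, 0% passed and 3.05% had an unadjusted p under 0.05. Across the 10 time points the Ifit1 difference ran from -2.32 to 5.18 and was above 0 at 6 of 10. Without LFC week 3 and HFC week 12, which removes weeks 3 and 12, all 9 differences were below 0 with a median of -0.41, and Ifit1 was at -0.41. The sign of the differences therefore rests on these weeks. The low LFC week 12 array is among them, and leaving out the 6 arrays by title removes the same weeks with the same values.

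Over weeks 3 to 18 alone, fitted with all 5 diets, the median difference between HFC and LFC was 0.38, from -0.09 for Rsad2 (SE 0.73) to 1.17 for Ifit1 (SE 1.26). No member passed (0 of 9 by limma, 0 at an unadjusted p under 0.05) against 0% and 2.33% of the 32083 probes. Without LFC week 3 and HFC week 12 the median was -0.08, with 7 of 9 below 0. Without the 6 arrays by title it was -0.08 as well, with 5 of 9 below 0.

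KAL-1 on the high fat diet was compared with HFC over weeks 3 to 18, dose by dose. No member passed the test at any dose, as none of the 32083 probes did (0% at each dose). At 5 µg the median difference was -0.05, and the largest was Ifit1 at -1.43 (SE 1.26), which rests on the single array of week 15. At 75 µg the median was -0.22, and the differences ran from -0.87 for Mx1 (SE 0.86) to 0.43 for Rsad2 (SE 0.73). Without the 6 arrays by title the medians were above 0, at 0.19 for 5 µg (6 of 9 genes above 0) and 0.41 for 75 µg (7 of 9). With LFC week 3 and HFC week 12 left out they were 0.08 (5 of 9 above 0) and -0.03 (3 of 9). At 75 µg the median also turned without week 12 alone (0.20). Neither dose had a member at an unadjusted p under 0.05, against 3.44% of probes at 5 µg and 1.54% at 75 µg.

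At 20 µg all 9 differences were below 0, with a median of -0.68 against -0.07 over all probes. They ran from -0.33 for Oasl2 (SE 0.38) to -1.89 for Ifit1 (SE 1.26). Rsad2 had a mean level of 0.88 in HF20 and 2.40 in HFC, a difference of -1.53 (SE 0.73, unadjusted limma p = 0.0478, adjusted p = 0.772 by Benjamini-Hochberg). It was the 1 member with an unadjusted p under 0.05, against 5.05% of probes. Week by week the Rsad2 difference ran from -4.82 to 1.45 and was above 0 at 2 of 6 weeks.

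The low values of HF20 lay on the arrays of weeks 6, 12 and 18, all 3 of which have a title that does not end in A. Without the 6 arrays by title the differences turned, with 8 of 9 above 0 and a median of 0.42, and Rsad2 stood at 0.39 (SE 0.54). Without LFC week 3 and HFC week 12 all 9 stayed below 0, with a median of -0.42. When each array was scaled to its median in place of its 75th percentile, which moves the median of all probes by 0.31, 8 of 9 were below 0. With arrays weighted by their fit, 5 of 9 were below 0. In the same comparison all 12 immediate early genes were below 0, with a median of -1.90, among them Egr1 (-2.75, SE 1.02) and Egr2 (-2.07, SE 0.72). Of the 12, 7 had an unadjusted limma p under 0.05, against 5.05% of all probes, and none passed. Adipocyte markers were above 0 for 8 of 10 genes (median 0.57), macrophage markers for 10 of 10 (0.31) and epididymis markers for 9 of 11 (1.74). The part of these genes in the result was not tested.

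The mean of the 3 doses against HFC was below 0 for all 9 genes, with a median of -0.30, from -1.26 for Ifit1 (SE 1.03) to -0.14 for Oasl2 (SE 0.31). None passed and none had an unadjusted p under 0.05, against 0% and 1.86% of probes. Without the 6 arrays by title 8 of 9 were above 0, with a median of 0.41. Leaving out LFC week 3 and HFC week 12 gave a median of -0.09, with 3 of 9 above 0, and with array weights it was 0.06, with 6 of 9 above 0. All 12 immediate early genes were below 0 (median -0.48) and all 10 adipocyte markers above 0 (median 0.46) in this comparison, and their part was not tested. The comparisons of doses share the HFC arrays, so they are not independent of each other.

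**Figure D3:**
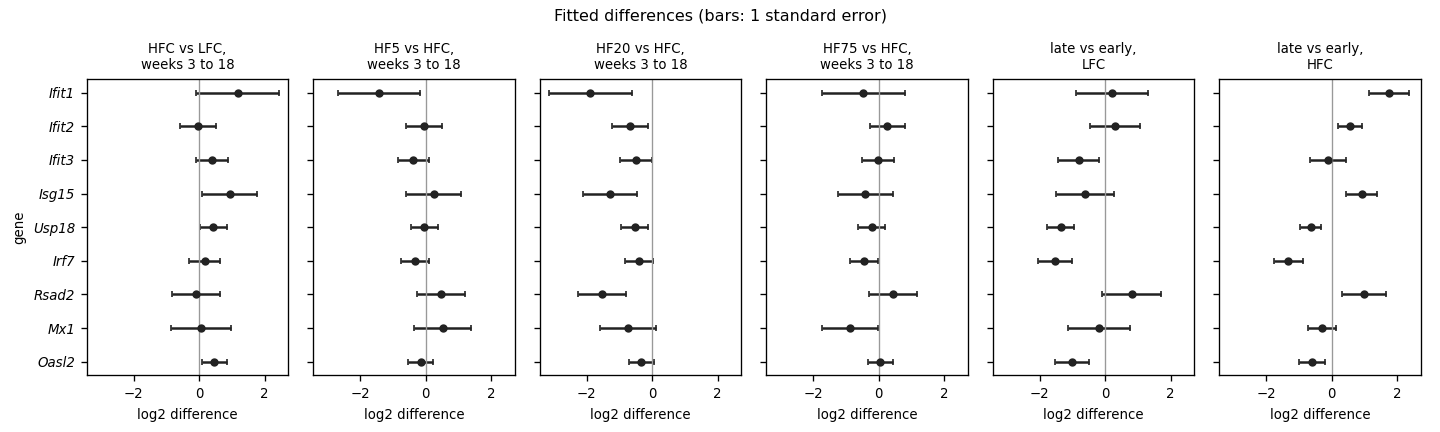
Difference in log2 level for each of the 9 genes in 6 comparisons, with bars of 1 SE from the limma fit. The panels are HFC against LFC and each KAL-1 dose against HFC over weeks 3 to 18, and weeks 3 to 18 against the earlier arrays in LFC and in HFC. At 20 µg all 9 points lie below 0, with a median of -0.68, and none of the points in the 6 panels passed the adjusted test.

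Whether a level moved with the week was asked over weeks 3 to 18 with diet in the model. Rsad2 was the 1 member that changed between weeks (limma F = 5.40, adjusted p = 0.0318 by Benjamini-Hochberg), against 10.0% of the 32083 probes. Its mean level was 1.79 at week 3, 1.53 at week 6, 3.70 at week 9, 0.78 at week 12, 4.13 at week 15 and 1.84 at week 18 (n = 5 each). At weeks 9 and 15 every diet was above the means of weeks 3, 6, 12 and 18, with ranges of 2.93 to 4.68 and 3.21 to 5.24. At week 12 the range was wide, -1.04 to 3.42.

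Ifit2, Ifit3, Irf7 and Oasl2 had an unadjusted p under 0.05 and did not pass, which makes 5 of 9 members with Rsad2, against 31.7% of probes. Ifit2 had its highest means at the same weeks as Rsad2, 0.20 at week 9 and 0.24 at week 15, and its lowest, -1.60, at week 12. Oasl2 had a mean of 1.81 at week 9 and 0.28 at week 12. Irf7 had another course, with means of 0.00 at week 3 (n = 4), -0.13 at week 6, -1.03 at week 9, -1.32 at week 12, -1.62 at week 15 and -0.91 at week 18.

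The call of Rsad2 held without the 6 arrays by title (F = 7.10, adjusted limma p = 0.0276). A second Rsad2 probe passed as well (F = 5.02, adjusted limma p = 0.0382). The call of the brightest Rsad2 probe was lost with normexp background correction, with quantile scaling, and when week 6, 9 or 15 was left out. Without LFC week 3 and HFC week 12 a total of 4 members passed, Rsad2 with Ifit3, Irf7 and Oasl2, but the probes that passed also rose in number, from 3222 to 6874. Since scan date ran with week, the change cannot be told apart from a difference between scan dates. Other interferon genes that passed were Ifng, the type II interferon (F = 13.1, adjusted limma p = 0.00391), Zbp1, a sensor of Z-form nucleic acid (F = 11.6, adjusted limma p = 0.00446), 5 of 36 other type I interferon targets (Adar, Oasl1, Ifi44, Oas1a and Ifi27l2a) and 2 of 20 interferon gamma targets (Nlrc5 and Socs1). None of 6 receptor genes, 6 signal transducers and 7 interferon regulatory factors passed. The shares of the interferon lists lay around the 10.0% of all probes or below it, and other lists had larger ones: 6 of 11 T and NK cell markers, 4 of 10 adipocyte markers, 2 of 5 B cell markers and 3 of 3 visceral depot markers, with 2 of 12 immediate early genes. Their part in the Rsad2 result was not tested.

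Change with time was compared within each diet, between the arrays of weeks 3 to 18 (late) and those up to week 0 (early). On the low fat diet Irf7 and Usp18 were lower late, but neither passed the adjusted test. Usp18 was 0.89 to 1.62 on the 5 early arrays and -1.24 to 0.86 on the 6 late arrays, so the groups did not overlap. The Usp18 difference was -1.36 (SE 0.42, unadjusted limma p = 0.00697, adjusted p = 0.462). Its lowest late value lay on LFC week 3, the array of poor quality, and without that array the difference was -1.14. Usp18 was the 1 member with no overlap, against 0.888% of the 30958 probes with every late array below every early one (0.578% were above). Irf7 was 0.02 to 1.04 on the 5 early arrays and -2.11 to 0.83 on the 5 late arrays with a value, a difference of -1.54 (SE 0.51, unadjusted limma p = 0.0116, adjusted p = 0.596). By limma 0 of 9 members passed, against 0.468% of probes, and 2 of 9 had an unadjusted p under 0.05, against 5.49%.

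The day arrays (days 1 to 14) had been scanned in another period than the weeks. Within the period of the weeks, with week 0 as the only early array, Usp18 differed by -1.58 (unadjusted limma p = 0.128) and Irf7 by -1.53 (unadjusted limma p = 0.201). Without the LFC week 12 array, the only late LFC array whose title does not end in A, the differences were -1.17 for Usp18 and -1.23 for Irf7. Of the 5 early LFC arrays, 4 are day arrays, whose titles end in E, while most late titles end in A. Early against late therefore cannot be told apart from the form of the title. The direction was the same in each of these settings, and none gave a call.

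On the high fat diet Irf7 was 0.50 to 1.49 early and -1.45 to 0.93 late, a difference of -1.32 (SE 0.45, unadjusted limma p = 0.0138, adjusted p = 0.238). Ifit1 was -0.35 to 2.92 early and 1.58 to 3.21 late, a difference of 1.74 (SE 0.61, unadjusted limma p = 0.0164, adjusted p = 0.243). Both overlapped between early and late, as did all other members (2.01% of probes had every late array below every early one and 0.909% above). By limma 0 of 9 members passed, against 0% of the 31136 probes, and 2 of 9 had an unadjusted p under 0.05, against 16.6%. The Ifit1 difference rests on the days, whose 3 HFC arrays were the low ones: against week 0 alone it was -0.57, and without week 0 it was 2.51 (adjusted limma p = 0.0249). Day 14 and week 0 are the same time by the paper's methods but were scanned in different periods. Ifit1 was -0.35 and 2.92 on these arrays in HFC, and 1.96 and 2.74 in LFC. Change with time therefore cannot be told apart from the scan period here. Irf7 against week 0 alone was -1.06. In the same comparison all 12 immediate early genes were above 0, with a median of 2.78, and their part in the result was not tested.

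The difference between diets was set late against early to test whether the course in HFC departed from that in LFC. All 9 estimates were above 0 with a median of 0.55, the largest for Ifit1 (1.84, SE 1.11) and Isg15 (1.80, SE 0.99, unadjusted limma p = 0.0949), and none passed or had an unadjusted p under 0.05, against 0% and 5.26% of 29698 probes. Without LFC week 3 and HFC week 12 the median was -0.23, with 5 of 9 below 0. Leaving out the 6 arrays by title gave the same median.

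The members were then set against each other across 37 arrays. These correlations are descriptions: the arrays share scan dates, slides and the scaling to a percentile, and 5 arrays lie far below the other 32 in mean deviation, so r is given over all 37 and over the 32. Of the 36 pairs 13 had r above 0.5 and 2 were below 0, with a median of 0.44, and of 0.41 when each array was set against the mean of its time point.

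Rsad2, Ifit2 and Isg15 moved most closely together. Ifit2 and Rsad2 had r = 0.91 over 37 arrays and 0.88 over 32, Isg15 and Rsad2 0.87 and 0.71, and Ifit2 and Isg15 0.83 and 0.68. Irf7 and Usp18 formed another pair, with 0.80 and 0.82. Ifit3 and Oasl2 had 0.69 and 0.65. Ifit1 followed Rsad2 at 0.71 and 0.50.

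Irf7 did not follow Rsad2 and Ifit2. With Rsad2 its r was -0.13 over 37 arrays and -0.70 over 32, and with Ifit2 it was -0.03 and -0.46. It was above 0 in both sets for Oasl2 (0.52 and 0.35), Ifit3 (0.36 and 0.25) and Mx1 (0.28 and 0.03). For Isg15 it was 0.19 and -0.34, and for Ifit1 0.09 and -0.24. This was not particular to Irf7. Over the 32 arrays Usp18 had r = -0.54 with Rsad2, -0.35 with Ifit2 and -0.24 with Isg15, against 0.29, 0.30 and 0.55 over 37. Within time points Irf7 and Rsad2 had r = 0.23. At weeks 9 and 15 the week means of Rsad2 were the highest of the 6 weeks, while those of Irf7 were -1.03 and -1.62.

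**Figure D4:**
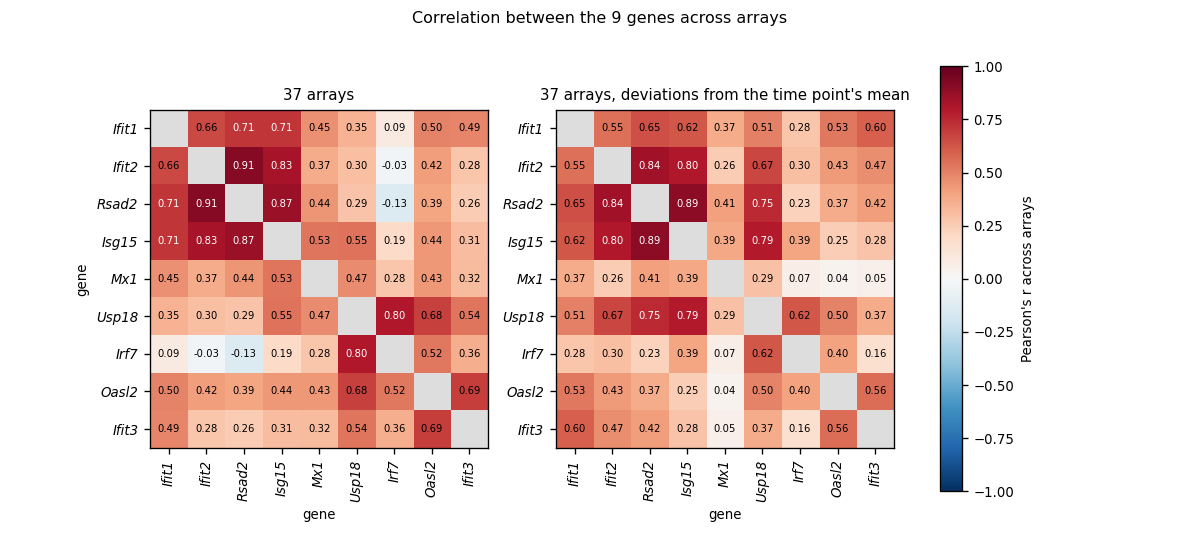
Pearson's r between the 9 genes over 37 arrays, left for the levels and right for deviations from the mean of the time point. On the left, Ifit2 with Rsad2 is highest at 0.91, Irf7 with Usp18 is at 0.80, and Irf7 with Rsad2 is lowest at -0.13.

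Among 20236 other genes that were well above background on at least 20 arrays, the 10 whose level followed the mean deviation of the members most closely over 37 arrays were Mx2, Gm9706, Ifitm3, Gm6577, Cd93, Oasl1, Pik3c2b, Gbp3, LOC545383 and Cxcl10. Mx2, a relative of Mx1, had r = 0.90 over 37 arrays and 0.64 over the 32. Oasl1, a relative of Oasl2, had 0.82 and 0.58. Ifitm3, a membrane protein that blocks virus entry, had 0.84 and 0.53. Cxcl10, an interferon induced chemokine, had 0.81 and 0.47, and Gbp3, a guanylate binding protein, 0.81 and 0.37. For Gm9706, described in the array annotation as similar to Isg15, signal of Isg15 itself cannot be told apart, and its r was 0.84 and 0.58. The median r over all candidates was 0.00 and the 99th percentile 0.71. Within time points Mx2 (0.89) and Oasl1 (0.88) ranked first and second.

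Lists of genes that act before and beside the members were described in the same way, by the mean deviation of each list. The mean of the 37 other type I interferon targets found followed the members at r = 0.91 over 37 arrays and 0.64 over 32. Of these targets 36 were well above background on at least 20 arrays, and 22 of the 36 had r above 0.5 as single genes. For interferon gamma targets r was 0.80 and 0.49, for nucleic acid sensors and adaptors 0.78 and 0.54, and for the signal transducers 0.75 and 0.39. The mean of 18 ligands had 0.60 and 0.27. The 10 ligands well above background on at least 20 arrays had a median r of 0.17 as single genes, with Ifnb1 the highest at 0.73. The 6 receptor genes had 0.00 and 0.07.

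In the comparison of 20 µg KAL-1 with HFC, 26 of 36 other type I targets were below 0, with a median of -0.38 against -0.07 over all probes. Of the 36, 5 had an unadjusted limma p under 0.05, against 5.05% of all probes. Ifi44 (-1.32, SE 0.45) and Ifi205 (-1.29, SE 0.45) had the smallest p of the list, and none passed (adjusted limma p = 0.772 for each). All 15 ligands tested were below 0 with a median of -0.76, Ifnb1 at -4.08 (SE 2.21) and Ifna11 at -1.39 (SE 0.48). Ifnb1 was well above background on 28 of 39 arrays and Ifna11 on 13, so these values are less certain. For these lists no values are given without the 6 arrays by title, where the differences of the members turned. Of the receptors 5 of 6 were above 0, with a median of 0.08.

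Marker lists of cell types were set beside the members too. The macrophage list had r = -0.10 over 37 arrays and 0.04 over 32, with list means from -1.11 to 1.24. The plasmacytoid dendritic cell list, of the cells known for the highest interferon output, had 0.22 and 0.33, and 0.02 within time points. Its 8 genes ran from -0.19 to 0.65 over 37 arrays. The highest was Bst2, which is also among the other type I interferon targets. The mean of the adipocyte list ran the other way, at -0.52 and -0.43. Its 10 genes ran from -0.67 to 0.45 over 37 arrays, with Fabp4 (0.45) and Cfd (0.38) above 0. Adipocyte means were 0.57 to 1.12 on the 6 arrays whose title does not end in A and -1.76 to 1.21 on the 24, so they overlapped.

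The immediate early genes, a list added after the data were seen, split the arrays into 27 with a mean deviation above -1 and 10 at or below it. Over 37 and 32 arrays their mean had r = 0.75 and 0.39 with the members, close to the values of the signal transducers, and all 12 genes had r above 0.5 over the 37. Within the 27 arrays it had r = 0.13 with the mean of the 9 members, and within the 10 arrays 0.50. By gene within the 27, r was 0.48 for Isg15 and 0.40 for Rsad2 but -0.38 for Irf7 and -0.42 for Usp18. A low immediate early mean did not always come with a low mean of the members. HFC day 6 and day 10 had immediate early means of -4.27 and -3.85 with mean member deviations of -0.03 and -0.18. Single members differed there. Rsad2 deviated by -1.62 and -1.34, Ifit2 by -0.80 and -0.69, and Isg15 by -0.41 and -0.48, while Irf7 deviated by 1.06 and 1.99. Below their own means were 4 of 9 members on day 6 and 5 of 9 on day 10. The part of the immediate early genes was not tested.

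**Figure D5:**
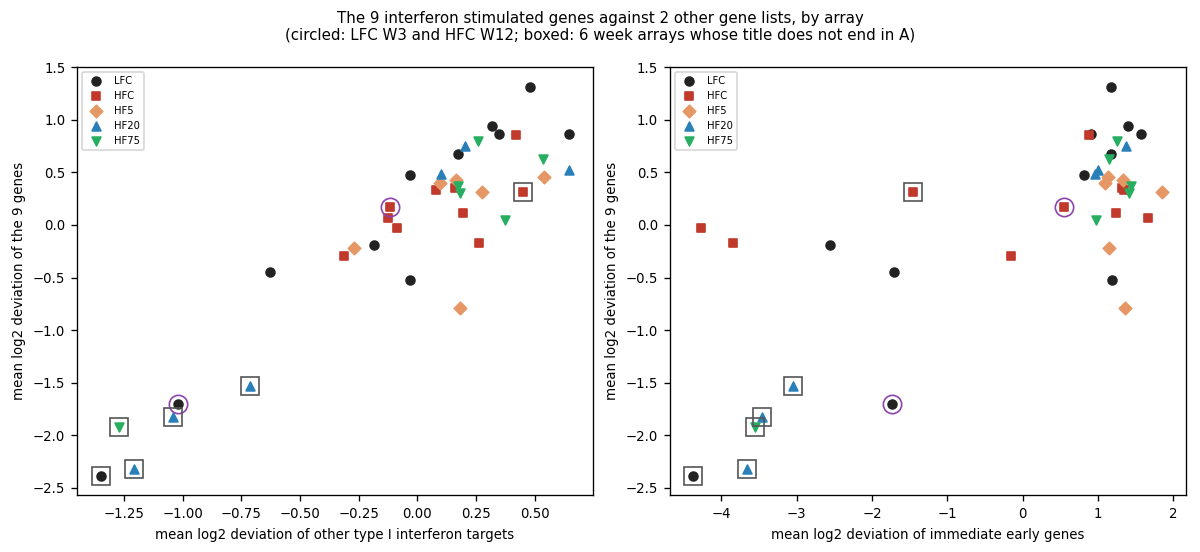
Mean log2 deviation of the 9 members (vertical) against that of the other type I interferon targets (left) and of the immediate early genes (right), 1 point per array, coloured by diet. LFC week 3 and HFC week 12 are circled, and the 6 week arrays whose title does not end in A are boxed. On both panels 5 of the 6 boxed arrays lie at the lower left, and HFC week 3 (0.31) lies with the others on the vertical axis.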

How the data were processed

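Epididymal adipose RNA of 39 samples was measured on Agilent one-colour arrays labelled with Cy3. The authors deposited scanner files whose intensity values, per the file headers, were background-subtracted within each array by Feature Extraction 10.5.1.1 (9.1 in the submitters' processing notes) and not normalised between arrays. A table of log2 differences against the matching LFC array, made by the authors in GeneSpring GX, was not used. From the processed signal, log2 values were taken and the array's 75th percentile was subtracted. Control spots were left out, outlier spots were treated as missing, and spots of a probe were averaged. The filter for a test was detection above background on 10 of 20 arrays or more (10 time points), 6 of 30 (weeks 3 to 18), 5 of 11 (LFC) or 4 of 10 (HFC). Differences were tested with limma 3.58.1 in R 4.3.3 (statmod 1.5.0 for the slide block), two-sided, with Benjamini-Hochberg adjustment over all probes tested and a threshold of 0.05, and the fits were tested on simulated data. With 1 array per diet and time point, p-values measure only the spread between these samples, which may be technical. Replicate numbers could pair HFC and LFC arrays only by time point: the correlation of their deviations was -0.45 to 0.81, above 0.1 at 6 of 10 time points, and time point was the block. The number of arrays limits the precision. No array was a copy of another (highest Spearman correlation between arrays 0.989). The members, the gene lists and the tests were chosen with earlier results of these data known, and the immediate early list and the alternatives for scan date and title ending were added after seeing the data. Named genes are the 9 members, the list genes that passed or had the smallest p, the 10 genes most like the members, and the arrays with the highest and lowest mean member deviation. Promoter sequences are from RefSeq (GRCm38.p6), used for sequence and names only, while the arrays' own annotation is on mm9. Alternatives were normexp background (offset 50), quantile and median scaling, outlier spots kept, other filters, array weights, slide or scan date as a block, no replicate block, arrays left out and 1 scan period.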

Additional observations from a re-analysis of the deposited data

Results flagged for a closer look

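Within each of the 4 groups of 6 to 10 arrays, the highest and the lowest array were set against the nearest other array for each gene, in 36 groups, and 5 were far from the rest. Chance marks about 1 in 20 groups. Ifit1 at HF5 week 15 was -5.23, with the next lowest HF5 array at 1.58. At HF75 week 12 Ifit1 was -2.07 (next 1.69) and Isg15 was -0.885 (next 2.48), on an array whose title does not end in A and on which every member was below its own mean. Usp18 at HF5 week 6 was 1.36, with the next highest HF5 array at 0.35. Mx1 at HF5 week 3 was 1.31 (next -2.54), while the second Mx1 probe stood at -7.48 on that array. On the HF5 week 15 array Rsad2 was 3.85, the highest of the HF5 arrays, while Ifit3 (-0.27), Irf7 (-1.73) and Mx1 (-3.61) were the lowest. The causes of these values were not tested.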

How the results depend on the processing

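Of the alternatives run, none gave a called member in any comparison of diets or doses, with the replicate block (time point) or with no replicate block, where 0 of 9 members passed and the medians were the same (0.14, 0.38, -0.05, -0.68, -0.22 and -0.30). Without the block the Rsad2 difference at 20 µg had an unadjusted limma p of 0.127, and with diet left out of the test between weeks 1 member and 2866 probes passed. Directions turned for Ifit1 in HFC against LFC without LFC week 3 and HFC week 12, or without the 6 arrays by title (-0.41 in each), with a range of -0.0882 (without week 12) to 0.746 when each time point was left out. They turned at 20 µg without the 6 arrays by title for Rsad2 (0.39) and Ifit1 (0.79), and over the mean of the doses for Ifit1 (0.0478) and for the median of members (0.41). The medians of members at 5 µg (0.19) and 75 µg (0.41) turned there too, as at 75 µg without week 12 (0.20). In HFC late against early, Ifit1 turned within 1 scan period (-0.57), and the median of members was -0.57 there. In the test between weeks, members passing were 0 with normexp or quantile scaling, 2 with detection on every array, 4 without the 2 poor arrays, 9 with array weights and 2 with slide as a block. Leaving out a week gave 0 to 3 (0 without week 6, 9 or 15, 3 without week 3). Probes passing there, 3222 as reported, were 143 (normexp), 1409 (quantile), 1253 (median scaling), 6874 (without the 2 poor arrays), 23651 (array weights), 4984 (slide) and 1897 (without the 6 by title), and 536 (without week 9) to 5722 (without week 3) by week. In LFC late against early, probes passing, 145 as reported, were 0 (normexp, and within 1 scan period), 66 (quantile), 79 (median scaling, outlier spots kept, and detection on every array), 332 (array weights), 73 (by title), and 51 (without day 6) to 212 (without week 3) by time point. In HFC late against early, members passing were 6 with array weights and 0 to 1 by time point. Probes passing there were 40 (median scaling), 7900 (array weights), 1 (by title, and within 1 scan period), and 0 to 775 (without week 0) by time point. For late against early of HFC minus LFC, 2 probes passed without the 2 poor arrays, with array weights and by title, and for the mean of doses 0 to 1 by week. The causes were not tested. Of the 10 genes most like the members, 8 stayed over all 39 arrays, 2 with Spearman's rho, 2 within time points and 7 without the 2 farthest arrays. Slide as a block could not be fitted for the late against early comparisons. Limits are that there is 1 array per diet and time point, that scan date ran with week, and that 5 of the 6 arrays with low members also have the undefined title form. With median scaling 8 of 9 differences at 5 µg and 6 of 9 for the mean of doses were above 0. With scan date as a block 6 of 9 differences of HFC against LFC were below 0 over the 10 time points, and 3 of 9 over weeks 3 to 18. The scan date and title alternatives were chosen after seeing the data.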
